A study of Mus musculus with 7 samples.

Results

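The cytosolic ribosomal protein genes are those whose symbol starts with Rpl or Rps followed by a digit, together with Rplp0, Rplp1, Rplp2 and Rpsa, with the Rps6k kinases left out. A gene was taken where an array probe set carried that symbol alone, and the probe set with the highest mean over the 7 arrays stood for it. This gave 49 genes, measured by 101 probe sets, of the 12393 genes that have a probe set with a single symbol. Of the 49, 42 encode proteins of the standard ribosome: 22 of the 46 listed symbols of the large subunit and 20 of the 32 listed symbols of the small subunit. The other 7 are related genes that the same symbol rule takes, namely Rpl22l1, Rpl39l, Rpl3l, Rpl7l1, Rps15a-ps6, Rps27l and Rps4l. A further 36 listed symbols (Rplp1, Rpl3, Rpl5, Rps27a and the older name Rps3a among them) have no probe set with 1 symbol. Probe sets whose several symbols include a ribosomal protein, 102 in number, are described only in sums.

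A ribosome consists of a small subunit, which reads the mRNA, and a large subunit, which joins amino acids. Each holds ribosomal RNA and many proteins that are made in matched amounts, and mRNAs of these proteins are among the most abundant of a growing cell. Most of these mRNAs begin with a C followed by a run of C or T bases (the TOP tract), through which growth signals acting on the kinase mTOR set how strongly they are translated. Lymphocytes that leave the resting state make many new ribosomes.

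Female C57BL/6 (B6) mice, 9 to 12 weeks old, were irradiated with 10.0 Gy and 4 to 6 h later received splenocytes, freed of red cells, from B6 donors (syngeneic) or from C3H/HeN donors, which differ from the host in their major histocompatibility genes (allogeneic). ICOS is a costimulatory receptor of T cells, and ICOSL is its ligand on antigen-presenting cells. Allogeneic recipients were given control rat IgG (isotype) or an antibody against ICOSL that began on day 0 or on day 3, with 500 µg at first and 200 µg every other day after that. The controls had the same doses, the day on which the isotype antibody began is not stated, and no antibody is named for the syngeneic mice. Spleen cells of day 4 were measured on 7 Affymetrix arrays, 1 for the syngeneic group and 2 for each of the isotype, day 0 and day 3 groups. Both arrays of an allogeneic group received RNA pooled from its mice, so p-values measure only the spread between arrays, which may be technical. Donor strain, the allogeneic response and the control antibody cannot be told apart in the comparison with the syngeneic array.

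Each array had been scaled to the same trimmed mean (500.18 to 500.19 signal units) and the median signal ran from 145.3 to 174.3. The Gapdh control ratio of 3' over 5' signal, which reflects how intact the RNA is, was 0.957 for the syngeneic array and 0.767 to 0.865 for the allogeneic ones, and the Actb ratio was 0.967 to 1.03. Markers of T and B cells, the main cells of the spleen, were measured on every array: Cd3e was 3278 in the syngeneic sample and 4715 to 7120 on the others, and Ms4a1 (CD20) was 9184 against 3142 to 5090. In isotype against syngeneic spleen, 9 of 13 tested T cell markers were higher and 4 lower, and all 10 tested B cell markers were lower. Markers of other cells differed as well. Summed over 15 macrophage markers the signal was 85391 in the syngeneic sample, 10388 to 10937 on the isotype, 17274 to 17649 on the day 0 and 14206 to 15250 on the day 3 arrays. Over 12 erythroid markers, genes of developing red cells, the sums in the same order were 28541, 9982 to 10140, 9032 to 9189 and 12537 to 13759. Over 13 T cell markers they were 32998, 46371 to 53044, 44328 to 46416 and 42680 to 44215. Over 11 B cell markers they were 91008, 66488 to 67639, 58118 to 61169 and 63484 to 63945. Over 9 neutrophil markers they were 41642, 10849 to 11152, 14125 to 14923 and 11223 to 11827. Over 12 markers of exocrine pancreas, a neighbouring organ, they were 6893, 4045 to 4259, 1572 to 2142 and 2449 to 2746, and over 10 stroma and endothelium markers they stayed between 894 and 1222. In such mixed samples, fewer cells of a type and less RNA per cell cannot be told apart.

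The start of the gene is shown for 8 members, because the TOP tract lies there and because these members carry the results below: the 2 lowest members of the allogeneic spleen (Rpl12 and Rps6), the member that moved most with anti-ICOSL (Rpl27a), the gene with a probe set past the test (Rps9), a member with a long run (Rpl35), a member without one (Rps28), and Rpl22 beside its relative Rpl22l1. Each window covers 15 bases before and 15 bases from the annotated start, 5' to 3' on the gene's strand, in RefSeq's GRCm38.p6, and capitals mark the longest run of C or T where it holds at least 7 bases.
Rps6 (chr4:86857353-86857382, minus strand): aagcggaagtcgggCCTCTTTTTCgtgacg
Rpl12 (chr2:32961697-32961726, plus strand): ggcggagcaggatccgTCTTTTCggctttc
Rpl27a (chr7:109519180-109519209, plus strand): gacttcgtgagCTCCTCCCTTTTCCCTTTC
Rps9 (chr7:3704026-3704055, plus strand): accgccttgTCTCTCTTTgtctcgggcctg
Rpl35 (chr2:39005117-39005146, minus strand): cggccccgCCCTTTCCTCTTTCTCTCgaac
Rps28 (chr17:33824548-33824577, minus strand): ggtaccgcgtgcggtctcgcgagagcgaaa
Rpl22 (chr4:152324421-152324450, plus strand): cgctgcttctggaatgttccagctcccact
Rpl22l1 (chr3:28805493-28805522, plus strand): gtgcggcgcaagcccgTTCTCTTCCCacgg
The run is 10 bases long in Rps6, 7 in Rpl12, 19 in Rpl27a, 9 in Rps9, 18 in Rpl35 and 10 in Rpl22l1. The longest run is 4 bases in Rps28 and 5 in this start of Rpl22. The run of Rpl27a reaches the end of its window, so its full length is not shown. A run was counted anywhere in the window, so it is not by itself a TOP tract. Whether these mRNAs carry the tract was not tested.

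A run of this length was common at the members' starts. RefSeq's table held 50 promoters of 42 members, and 24 of them (48%) had such a run, against 18.6% of all 32851 promoters. The entries of Rps15a-ps6, Rpl7, Rps4l, Rps29, Rps14, Rps20 and Rpl8 were not used. In the whole promoter of 300 bases (250 before and 50 after the start), the letters CCGGAAG, which Ets-family factors can bind, occurred on either strand in 21 of the members' 50 promoters (42%) against 8.86% of all. The letters AAGATGG, which the factor Yy1 can bind, occurred on either strand in 7 (14%) against 6.34%. The 2 motifs can overlap by their shared AAG at the end of the first. These are matches of letters and say nothing about binding in these cells.

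Ribosomal protein genes were a large part of what the arrays measured. The 49 member probe sets gave 4.59% of the summed signal on the syngeneic array. They gave 4.27% and 4.31% in isotype, 4.12% and 4.01% in day 0, and 4.11% and 4.31% in day 3. The syngeneic array was thus the highest of the 7. All probe sets with any ribosomal protein symbol gave 14.8% on the syngeneic array, against 12.8% to 13.4% on the 6 allogeneic arrays. With 1 syngeneic array, these shares have no replicate on that side.

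**Figure D1:**
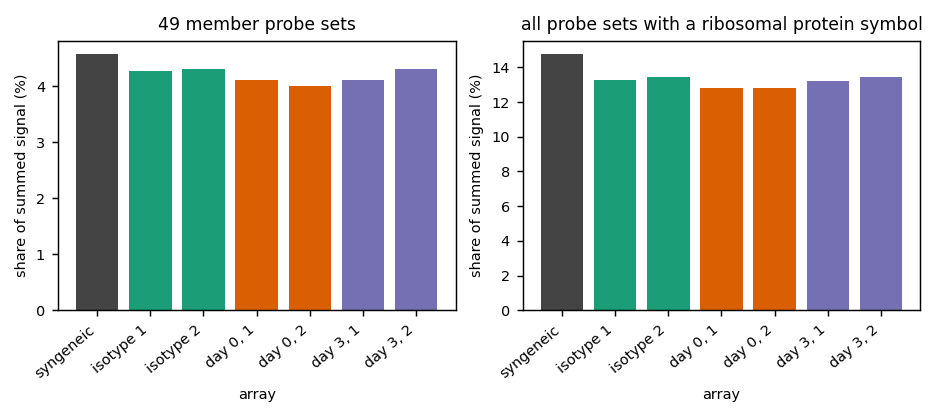
Share of the summed signal (%) on each of the 7 arrays, for the 49 member probe sets (left) and for all probe sets with a ribosomal protein symbol (right). The syngeneic bar is the highest in both panels, at 4.59% and 14.8%, and the allogeneic bars lie between 4.01% and 4.31% and between 12.8% and 13.4%.

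Of the 49 members, 46 were bright enough to be tested, among them all 42 standard ribosomal proteins. The 3 others were Rpl3l, a relative of Rpl3 known from heart and skeletal muscle (3.94 to 39.1), Rps4l (3.68 to 28.9) and Rps15a-ps6 (22.0 to 49.2), and their signals lay under the filter of 99.7. The 46 passed through a filter on brightness, so they are not all members. Among the tested members, 34 had a mean signal of 5000 or more.

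The bright members varied little among the 7 arrays. Their coefficient of variation had a median of 9.36% and ran from 4.37% to 22.2%. All 573 tested probe sets with a mean signal of 5000 or more, these members among them, had a median of 12.1%. The ratio of the highest to the lowest array was under 1.5 for 31 of the 34. Rpl6, a large-subunit protein, was the steadiest by coefficient of variation: 22267 in the syngeneic sample, 23241 and 21255 on the isotype, 22767 and 22287 on the day 0, and 20369 and 22388 on the day 3 arrays, all groups overlapping. Rps19 was the most variable of the bright members. The 12 dimmer members had a median coefficient of variation of 25.2%.

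Arrays of a group repeated each other more closely for members than for all tested probe sets, which are dimmer. The median absolute log2 difference of members between the 2 arrays was 0.16 in isotype, 0.14 in day 0 and 0.09 in day 3, against 0.24, 0.22 and 0.19 over all tested probe sets. For the 34 bright members it was 0.13, 0.13 and 0.08. For all tested probe sets with a mean signal of 5000 or more, these members among them, it was 0.13, 0.13 and 0.07. The widest gap between 2 arrays was that of a dim member in isotype and in day 0 and of a bright one, Rps2 (20624 and 28988), in day 3. Rpl39l, a relative of Rpl39 known from testis, was 50 and 156 on the 2 isotype arrays, and Rps27, a zinc-binding protein of the small subunit, was 699 and 345 on the 2 day 0 arrays. Rpl22, a protein of the large subunit that alpha-beta T cell development needs in mice, was 3093 and 5940 on the isotype arrays.

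**Figure D2:**
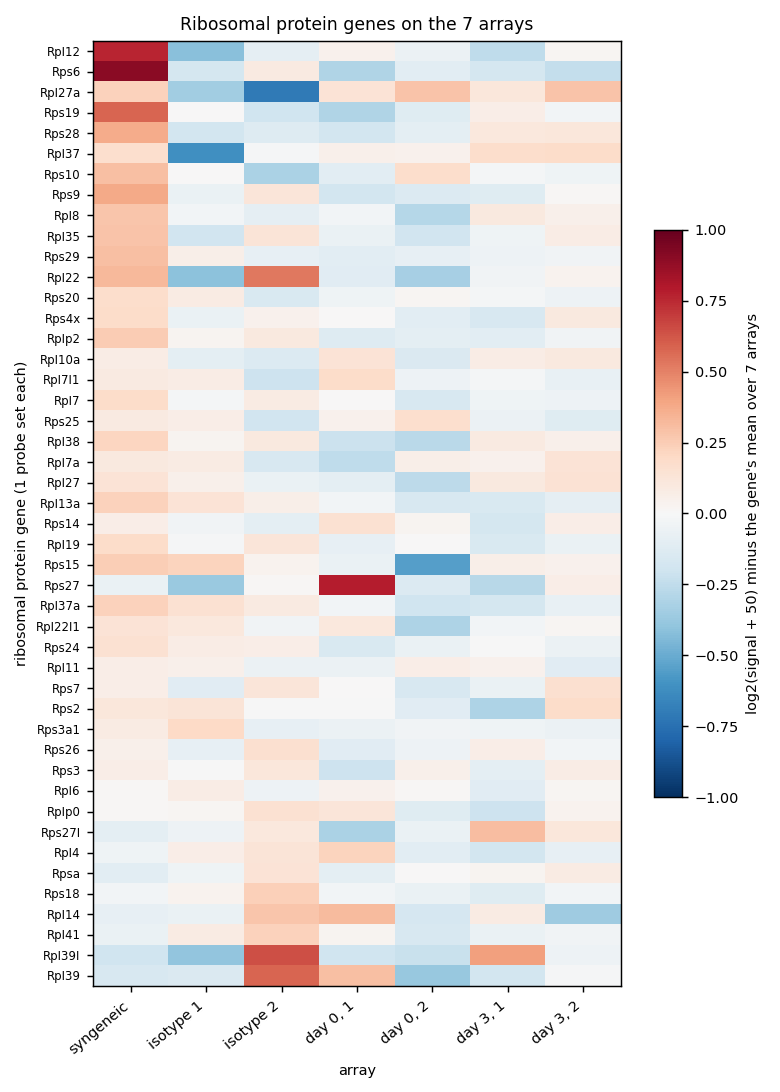
Each row is 1 of the 46 tested members, ordered by the isotype minus syngeneic difference, each column 1 array, and colour gives log2(signal + 50) minus the gene's mean over the 7 arrays. Red fills much of the syngeneic column in the upper rows, deepest for Rps6 and Rpl12, and the lowest rows, from Rpsa to Rpl39, run the other way.

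The isotype against syngeneic comparison sets allogeneic against syngeneic spleen on day 4 without blocking of ICOSL. None of the probe sets that stand for the members passed the test (1 further probe set of Rps9 did, as given below), and more members had a lower than a higher mean in the allogeneic spleen. Of the 46, 37 were lower on average in isotype and 9 higher (29 lower with arrays centred on their medians and 30 with quantile normalization). Among the 9 was Rpl39l (0.33), at 64.6 in the syngeneic sample and 50 and 156 on the isotype arrays. Rpl39l passed the filter on brightness only through its isotype mean (103) and day 3 mean (101). Its place among the higher members thus partly follows from the filter. The median log2 difference of the 46 was -0.13, where all tested probe sets had -0.01. The 22 large-subunit members summed to 390039 in the syngeneic sample and 367401 to 377874 on the isotype arrays, and the 20 small-subunit members to 383003 and 344379 to 345253.

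Limma called 0 of the 46 members at an adjusted p of 0.05, against 6.62% of all 15372 tested probe sets (1017), and the smallest adjusted p was 0.0574, that of Rps6. At an unadjusted p under 0.05 there were 5 members, all lower, or 10.9% of them, against 23% of all tested probe sets. The 95% interval of the difference lay within 2-fold either way for 36 of the 46 members (78.3%), against 47.6% of all tested probe sets. The median SE was 0.21 for members and 0.25 over all tested probe sets. Most members are brighter than most tested probe sets. The background shares, here and in the comparisons below, were not matched for brightness. Both isotype arrays lay below the syngeneic one for 29 members (63.0%, background 38.8%) and above it for 8 (17.4%, background 38%). Set against all 6 allogeneic arrays, the syngeneic array was the highest for 21 of 46 members (45.7%) against 26.4% of all tested probe sets, and the lowest for 1 (2.17%) against 26%. The member probe sets share 1 syngeneic array, so these counts share its error. In the same comparison limma called 15 of 15 macrophage, 9 of 9 neutrophil, 6 of 11 erythroid, 2 of 10 B cell and 1 of 12 exocrine pancreas markers lower. It called 4 of 13 T cell markers higher and 0 of 4 tested stroma markers (1 at an unadjusted p under 0.05). The Gapdh ratio differed as given above. The part of these cell types and of the Gapdh difference in the members' values was not tested.

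Rps6, the small-subunit protein that S6 kinases phosphorylate when mTOR is active, was 909 in the syngeneic sample, 404 and 495 on the isotype, 367 and 428 on the day 0, and 405 and 385 on the day 3 arrays. All 6 allogeneic arrays lay below the syngeneic one, and the isotype minus syngeneic log2 difference was -0.95 ± 0.22 (SE; 95% interval -1.47 to -0.42, adjusted p = 0.0574 by limma). Rpl12, a large-subunit protein at the base of the stalk to which translation factors bind, was 797 in the syngeneic sample, 324 and 421 on the isotype, 464 and 430 on the day 0, and 370 and 457 on the day 3 arrays. It too lay lower on every allogeneic array (-1.01 ± 0.24, 95% interval -1.59 to -0.44, adjusted p = 0.0617). Both probe sets are dim for members, with mean signals of 485 (Rps6) and 466 (Rpl12), where 34 of the 46 tested members had 5000 or more. How fully they measure the mRNA of these genes was not tested. Rps6 passed under 3 and Rpl12 under 4 of 19 alternative settings, as far as an adjusted p of 0.0180 and 0.0197.

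Rps19, whose human gene is the one most often mutated in Diamond-Blackfan anaemia, an inherited failure of red cell formation, was 18008 on the syngeneic array. It was 12037 and 10475 on the isotype, 9744 and 11060 on the day 0, and 12587 and 11827 on the day 3 arrays. The syngeneic value stood above all others, with an isotype difference of -0.68 ± 0.21 (95% interval -1.18 to -0.17, adjusted p = 0.121). Rps28, another small-subunit protein, was 31197 on the syngeneic, 21167 and 22035 on the isotype, 21260 and 22565 on the day 0, and 25951 and 26065 on the day 3 arrays (-0.53 ± 0.19, adjusted p = 0.162). In this chosen probe set the day 3 arrays lay between the syngeneic array and the other 4. In another probe set of Rps28 the day 3 arrays (16382 and 15958) lay inside the isotype range (15293 and 17135). Rpl27a, a large-subunit protein, was 410 in the syngeneic sample and 258 and 189 on the isotype arrays (-0.76 ± 0.24, adjusted p = 0.123). Its day 0 arrays (381 and 426) and day 3 arrays (373 and 425) lay on both sides of the syngeneic value.

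All 13 members measured on the list of genes mutated in human Diamond-Blackfan anaemia were lower in isotype than in syngeneic spleen on average, with a median of -0.21, where 80.4% of all members and 50.7% of all tested probe sets were lower. None of the 13 passed by limma (2 at an unadjusted p under 0.05, smallest adjusted p = 0.121). Their summed level was 249699 in the syngeneic sample, 206403 and 207504 on the isotype arrays, 197958 to 200031 on the day 0 arrays and 215312 to 215985 on the day 3 arrays. The list takes 13 of the 46 tested members, Rps19 and Rps28 among them. The erythroid marker sums given above were lowest on the day 0 arrays and highest on the syngeneic array as well. So were the B cell and exocrine pancreas sums, and the sum of the 20 small-subunit members (383003 in syngeneic, 324100 and 327766 in day 0). Of 11 tested erythroid markers 10 were lower in isotype than in syngeneic spleen. The part of red cell precursors in this difference was not tested.

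In the stalk of the large subunit, Rplp0, which anchors it, was 21635 in the syngeneic sample and 21808 and 23917 on the isotype arrays (0.08, 95% interval -0.46 to 0.62). Rplp2, an acidic protein of the same stalk, was 28335 in the syngeneic sample, 24155 and 25408 on the isotype, 21660 and 22172 on the day 0, and 22046 and 23164 on the day 3 arrays (-0.19, 95% interval -0.65 to 0.26). Every allogeneic array was below the syngeneic one for Rplp2 and not for Rplp0. Rpl11, which with Rpl5 binds the Mdm2 protein and so links ribosome assembly to p53, was 12611 in the syngeneic sample and 11133 to 12606 on the 6 others (-0.07, 95% interval -0.55 to 0.42).

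At the exit of the tunnel through which the new protein leaves the large subunit, Rpl35 was 19536 in the syngeneic sample and 13978 and 17513 on the isotype arrays (-0.32, adjusted p = 0.456). Rpl19 was 24129 against 21133 and 23078 (-0.13). Rpl39, which lines that tunnel, was the member with the highest isotype minus syngeneic difference, 0.38 ± 0.39 (adjusted p = 0.625). Its values were 386 in the syngeneic sample, 391 and 679 on the isotype, 551 and 324 on the day 0, and 379 and 433 on the day 3 arrays, so both isotype arrays lay above the syngeneic one, the first of them barely, and 1 isotype and 1 day 0 array stood highest. Rpl4, whose loop forms part of the tunnel wall, was 23011 against 24779 and 25930 (0.14).

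Among other large-subunit proteins, Rpl41, a very short peptide, was 53453 in the syngeneic sample and 59206 and 65729 on the isotype arrays (0.22, 95% interval -0.27 to 0.71). Rpl14 was 251 against 254 and 337 (0.19). Rpl13a, which in human myeloid cells can leave the ribosome to silence inflammatory mRNAs, was 23161 against 21693 and 20570 (-0.13, adjusted p = 0.738). The chosen Rpl13a probe set lay lower on all 6 allogeneic arrays, the lowest at 17618 on a day 0 array. Of its 4 tested probe sets, 2 were lower and 2 higher in isotype (-0.33 to 0.61). The 2 higher ones were 8222 and 2093 in the syngeneic sample. Every allogeneic array lay above these values, at 8444 to 9672 and at 2786 to 3959. Rpl22 was 5170 on the syngeneic array, inside the isotype range (-0.27, 95% interval -1.18 to 0.64). Its relative Rpl22l1 was 5926 in the syngeneic sample and 4326 to 5799 on the 6 others (-0.11, 95% interval -0.68 to 0.47). Rpl7l1, a relative of Rpl7, was 951 against 939 and 767 (-0.16). Its second probe set, of like brightness, went the other way, at 810 against 989 and 1077 (0.33).

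In the small subunit, Rpsa, known also as a laminin receptor at the cell surface, was the only tested member with its lowest value on the syngeneic array. It was 27727 there, 29024 and 32800 on the isotype, 27935 and 29892 on the day 0, and 30449 and 31540 on the day 3 arrays (isotype difference 0.15, adjusted p = 0.697). Rps18 was 20778 in the syngeneic sample and 21736 and 25060 on the isotype arrays (0.17). Rps3, which sits where mRNA enters the ribosome, was 26368 against 25204 and 27324 (-0.01, 95% interval -0.53 to 0.52). Rps14, whose human gene is lost in a form of myelodysplastic syndrome with anaemia, was 22231 against 20751 and 19865 (-0.13). Rps4x, encoded on the X chromosome, was 22103 against 18512 and 19940 (-0.20), with every allogeneic array below the syngeneic one. Rps27 was 365 against 285 and 389 (-0.11, 95% interval -1.10 to 0.87). Its relative Rps27l, a gene known to be induced by p53, was 4435 against 4583 and 5102 (0.12, 95% interval -0.41 to 0.66).

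**Figure D3:**
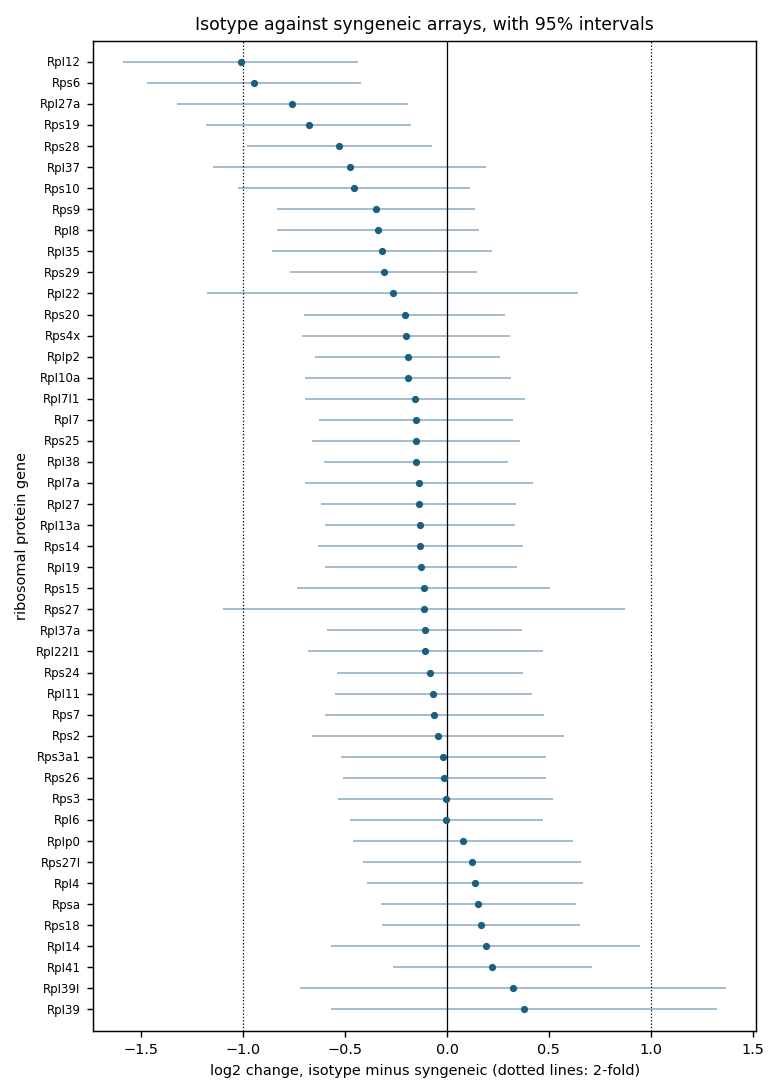
Log2 difference on the log2(signal + 50) scale, isotype minus syngeneic, for each of the 46 tested members, with points for the estimate of the fit, lines for its 95% interval and dotted lines at a 2-fold difference. Points run from -1.01 (Rpl12) to 0.38 (Rpl39), 37 lie left of 0, and 36 intervals lie within the dotted lines.

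A second probe set of Rps9 passed the test where the chosen one did not. Rps9 is a small-subunit protein close to the site where the mRNA enters. The second probe set was 3034 in the syngeneic sample, 214 and 437 on the isotype, 506 and 342 on the day 0, and 261 and 233 on the day 3 arrays. All 6 allogeneic arrays were far below the syngeneic one, and the probe set fell by 3.10 ± 0.40 (SE) on the log2 scale (adjusted p = 0.0103 by limma), with adjusted p-values from 0.000100 to 0.0438 over 16 alternative settings. The chosen Rps9 probe set was 15626 on the syngeneic, 11495 and 13043 on the isotype, 10544 and 10902 on the day 0, and 11037 and 12138 on the day 3 arrays (-0.35, adjusted p = 0.361), and the remaining probe set was 263 against 240 ± 2 (SD, n = 2; -0.11). The 3 probe sets gave the same sign and very different sizes, so they disagree about how far Rps9 differs. The chosen Rps9 probe set is of the array's _s_at kind and the passing one of its _x_at kind, and probes of both kinds can match other transcripts. The chosen probe sets of Rps28, Rpl38, Rpl37, Rps27l, Rpl35 and Rpl41, among others, are of the _x_at kind too. Whether the probes of the passing one match Rps9 alone, or alike in B6 and C3H, was not tested. It was the only 1 of the 91 tested probe sets of members that passed, and 1 of the 97 tested probe sets with several symbols passed, also lower in isotype.

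Probe sets of 1 gene differed elsewhere too. Of 19 members with at least 2 tested probe sets, 11 had all of them lower in isotype than in syngeneic spleen and 1 had all of them higher, and in 3 members they differed by over 1 on the log2 scale. Beside Rps9 these were Rps24, a small-subunit protein on the Diamond-Blackfan list (-0.86 to 0.24 over 6 probe sets), and Rps18 (-0.21 to 0.84 over 4). The value of 0.84 comes from a probe set with means of 60.4 in isotype and 9.60 in syngeneic, both under the filter of 99.7, which it passed only through another group. The several-symbol probe sets gave a like picture to the members, with 76 of 97 lower and a median of -0.20. Array by array, the median member stood 0.10 to 0.20 log2 units under its syngeneic value (-0.10 and -0.15 on the isotype, -0.18 and -0.20 on the day 0, -0.16 and -0.15 on the day 3 arrays), while the median over all tested probe sets stayed between -0.02 and 0.04.

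**Figure D4:**
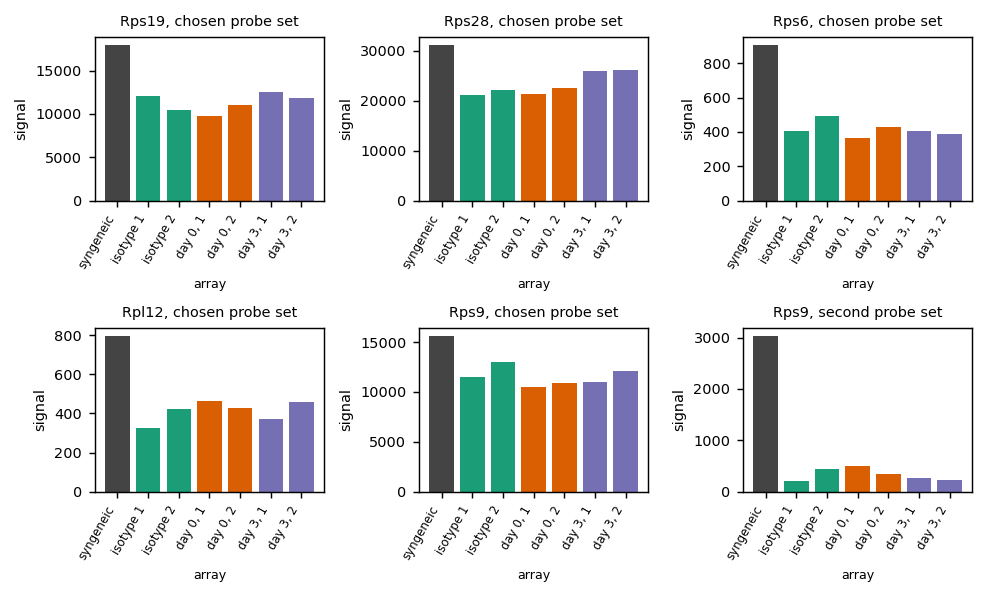
Signal on each of the 7 arrays (linear scale from 0, 1 bar per array) for the chosen probe sets of Rps19, Rps28, Rps6, Rpl12 and Rps9 and for the second probe set of Rps9. The syngeneic bar is the tallest in all 6 panels, and the second Rps9 probe set stands at 3034 on that array and at 214 to 506 on the 6 others.

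The comparison of anti-ICOSL from day 0 with isotype asks what early blocking of the ligand changed. No ribosomal protein gene was called, and neither was any other probe set: limma called 0 of 46 members and 0 of 15372 probe sets (0%), with a smallest adjusted p of 0.578 among members. At an unadjusted p under 0.05 there was 1 member, Rpl27a (2.17%), against 7.18% of all tested probe sets. Of the 46 members 33 were lower in day 0 (37 with median centring, 27 with quantile normalization), with a median of -0.10 against 0.02 over all tested probe sets. With quantile normalization the member median was -0.02, and its gap from that of all tested probe sets shrank from -0.11 to -0.02. Both day 0 arrays lay below both isotype arrays for 13 members (28.3%, background 16.2%) and above them for 4 (8.70%, background 19.4%). The 95% interval lay within 2-fold for 41 of 46 (89.1%, background 78.4%).

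Rpl27a was 381 and 426 on the day 0 arrays against 258 and 189 on the isotype arrays, with no overlap (0.74 ± 0.19, 95% interval 0.27 to 1.20, adjusted p = 0.578). The syngeneic array, at 410, lay between the 2 day 0 arrays. Rps27 (0.50, adjusted p = 0.812), Rpl37 (0.36, adjusted p = 0.808), Rpl12 (0.24, adjusted p = 0.852) and Rps10 (0.19, adjusted p = 0.879) followed. The 6 tested probe sets of Rps10 ran from -0.15 to 0.36, with 4 lower and 2 higher in day 0. The Rps27 value rests on 1 of the 2 day 0 arrays, since the other, at 345, lay inside the isotype range. Rpl37, a zinc-binding protein of the large subunit, was 1293 and 1288 on the day 0 arrays against 800 and 1240.

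The lowest members in day 0 were Rps15, Rpl39l, Rpl38, Rpl22 and Rpl39. Rps15, a small-subunit protein near the decoding site, was 14708 and 10504 against 17986 and 15728 on the isotype arrays (-0.43 ± 0.21, 95% interval -0.94 to 0.07, adjusted p = 0.750). Rpl38, a large-subunit protein needed for skeletal patterning in mice, was 20049 and 19270 against 23790 and 24957 (-0.31 ± 0.15, 95% interval -0.68 to 0.06). In the chosen probe sets of both, the arrays of the groups did not overlap. A second probe set of Rps15 was 12235 and 10017 against 12107 and 10434, with overlap (-0.02). Rpl39l was 64.5 and 62.6 against 50 and 156 (-0.34), Rpl22 was 3809 and 3266 against 3093 and 5940 (-0.28), and Rpl39 was 551 and 324 against 391 and 679 (-0.26), each with overlapping groups. Rpl39l passed the filter of 99.7 only through its isotype mean (103) and day 3 mean (101), and its day 0 mean was 63.6, so its low place in day 0 partly follows from the filter.

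Rps6, Rps19 and Rplp0 overlapped between the day 0 and isotype arrays. Rps6 was 367 and 428 against 404 and 495 on the isotype arrays, Rps19 was 9744 and 11060 against 12037 and 10475, and Rplp0 was 23351 and 19741 against 21808 and 23917. Rplp2 was 21660 and 22172 against 24155 and 25408, and Rpl41 was 56992 and 50097 against 59206 and 65729 (-0.22, 95% interval -0.62 to 0.18). Both lay lower on the day 0 arrays without overlap and without passing. In Rps24, 6 probe sets ran from -0.26 to 0.74.

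Anti-ICOSL from day 3 was compared with isotype in the same way, and no member passed the test. This comparison uses the same 2 isotype arrays, so the 2 sets of values are not independent. Limma called 0 of 46 members and 0 of 15372 probe sets (0%), with a smallest adjusted p among members of 0.398, and 1 member (2.17%) against 10.2% of all probe sets had an unadjusted p under 0.05. There were 27 members lower and 19 higher (35 lower with median centring, 21 with quantile normalization). The median was -0.03 against 0.03 over all tested probe sets, and it turned to 0.01 with quantile normalization. Both day 3 arrays lay below isotype for 9 members (19.6%, background 18.8%) and above for 7 (15.2%, background 24.3%). The 95% interval lay within 2-fold for 43 of 46 (93.5%, background 75.2%).

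Rpl27a was again the member with the smallest p, at 373 and 425 on the day 3 arrays against 258 and 189 (0.72 ± 0.19, 95% interval 0.26 to 1.19, adjusted p = 0.398). The 2 isotype arrays were the lowest of the 7 for this gene, so both of its differences rest on them. Rpl37 was 1420 and 1427 against 800 and 1240 (0.49 ± 0.23, adjusted p = 0.516), and its isotype arrays were likewise the 2 lowest of the 7. Rps28 was 25951 and 26065 against 21167 and 22035 (0.27, 95% interval -0.10 to 0.64), Rpl10a, which forms a mobile stalk on the large subunit, was 18909 and 19188 against 16695 and 16299 (0.21), and Rps27l was 5893 and 5135 against 4583 and 5102 (0.18). In these chosen probe sets none of the 3 overlapped between the groups. The 3 tested probe sets of Rps28 ran from -0.002 to 0.27 and the 3 of Rps27l from -0.12 to 0.51. In each gene 1 of them was lower and 2 were higher in day 3.

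On the low side, Rpl39 was 379 and 433 against 391 and 679 (-0.32), and Rpl14 was 287 and 199 against 254 and 337 (-0.24), with overlap in both. Rpl37a, a zinc-binding protein, was 19665 and 21102 against 24755 and 23644 (-0.25, 95% interval -0.64 to 0.14). Rpl4 was 20894 and 22437 against 24779 and 25930 (-0.23), and Rpl13a was 17747 and 18551 against 21693 and 20570 (-0.22, 95% interval -0.60 to 0.16). These 3 did not overlap. The 4 tested probe sets of Rpl13a ran from -0.22 to 0.10, with 1 lower and 3 higher in day 3. A dim second probe set of Rpl37a was 187 ± 6 (SD, n = 2) against 740 ± 267 on the isotype arrays (-1.69 ± 0.35, adjusted p = 0.334), so the probe sets of this gene ran from -1.69 to -0.18.

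**Figure D5:**
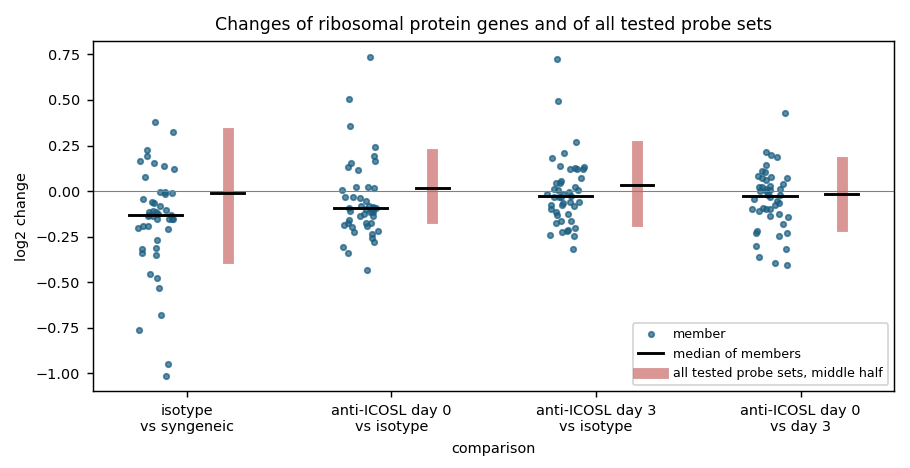
Log2 differences of the 46 tested members in the 4 comparisons (points, with a black bar at their median), beside the median and the middle 50% of all tested probe sets (red bar). Members centre on -0.13, -0.10, -0.03 and -0.03 from left to right, most lie inside or near the red bars, and the 2 points above 0.7 are Rpl27a in both comparisons with isotype.

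The direct comparison of the 2 antibody schedules, day 0 minus day 3, gave 0 of 46 members and 0 of 15372 probe sets past the test (0%), with a smallest adjusted p of 0.746 among members by limma. At an unadjusted p under 0.05 there were 0 members (0%) against 6.79% of all probe sets. The median was -0.03 against -0.01 over all tested probe sets, with 25 members lower and 21 higher, and it turned to 0.03 with median centring (20 lower). With quantile normalization 22 were lower. Both day 0 arrays lay below both day 3 arrays for 16 members (34.8%, background 20.4%) and above for 1 (2.17%, background 18.6%), Rps25. The 95% interval lay within 2-fold for 44 of 46 (95.7%, background 78.2%).

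The lowest was Rps27l, at 3791 and 4527 on the day 0 arrays against 5893 and 5135 on the day 3 arrays (-0.40 ± 0.18, 95% interval -0.84 to 0.03, adjusted p = 0.746). Rpl39l was 64.5 and 62.6 against 125 and 77.2 (-0.39), Rps15 was 14708 and 10504 against 16048 and 15868 (-0.36), Rpl38 was 20049 and 19270 against 24839 and 24147 (-0.32), and Rpl27 was 17152 and 15259 against 19621 and 20238 (-0.30). In all 5 the groups did not overlap, and the limit of the filter given for Rpl39l holds here too. Rps28 (-0.25) and Rps19 (-0.23) also lay lower on both day 0 arrays than on both day 3 arrays.

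On the high side stood Rps27 (0.43, adjusted p = 0.854), Rpl14 (0.21), Rps25 (0.20), Rpl4 (0.19) and Rps14 (0.14). Rps25, a small-subunit protein that some viral mRNAs need to start translation, was 1140 and 1253 against 1063 and 1012, and the other 4 overlapped. Of the 13 measured members of the Diamond-Blackfan list 9 were lower in day 0, with a median of -0.10, and 0 passed by limma (smallest adjusted p = 0.777, 0 at an unadjusted p under 0.05). All 11 tested erythroid markers were lower on average in day 0 than in day 3, none past the test, and their part in these values was not tested. Probe sets disagreed by over 1 on the log2 scale for Rpl37a (-0.05 to 1.36) and Rps10 (-0.64 to 0.69).

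Genes that make or serve the ribosome were measured on the same arrays. Fau, which encodes a small-subunit protein fused to a ubiquitin-like protein and falls outside the symbol rule, was 22649 in the syngeneic sample, 17125 and 16487 on the isotype, 15133 and 16648 on the day 0, and 18629 and 17673 on the day 3 arrays (isotype difference -0.43, adjusted p = 0.253). Every allogeneic array lay below the syngeneic one. Of 17 translation factors and other genes with TOP mRNAs, 10 were higher and 7 lower in isotype than in syngeneic spleen, with a median of 0.02 and 0 called by limma (1 at an unadjusted p under 0.05). Their summed level was 198958 in the syngeneic sample and 193545 to 206509 on the others, so this sum did not separate the syngeneic array. The list led with Nap1l1, a histone chaperone (0.53, adjusted p = 0.177), Eif3h, a subunit of an initiation factor (0.34), Hnrnpa1, an RNA-binding protein (0.20), and Eef1b2, an elongation factor subunit (-0.19).

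Of 23 initiation factors and their regulators, 16 were higher in isotype, with a median of 0.23 and 0 called by limma (3 at an unadjusted p under 0.05). Eif4e, which binds the mRNA cap, was 3638 ± 142 (SD, n = 2) against 2221 (0.70, adjusted p = 0.128). Eif4ebp1, an inhibitor of Eif4e that mTOR phosphorylates, was 306 ± 65 against 861 (-1.37 ± 0.56, adjusted p = 0.212). Eif4a2, a helicase, was lower (-0.67, adjusted p = 0.154) and Eif2b1 higher (0.56, adjusted p = 0.245).

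Of 47 genes of ribosome assembly and ribosomal RNA synthesis, 32 were lower in isotype, with a median of -0.10, and 1 passed. Polr1b, a subunit of RNA polymerase I, which transcribes ribosomal RNA, was 1217 in the syngeneic sample, 521 and 415 on the isotype, 182 and 273 on the day 0, and 399 and 360 on the day 3 arrays. It fell by 1.30 ± 0.27 (SE) on the log2 scale in isotype (adjusted p = 0.0434 by limma), and the call ended under 11 of 16 alternative settings, among them each of the 6 allogeneic arrays left out in turn (up to 0.131). In day 0 against isotype it was -0.91 (adjusted p = 0.533). Nop14 (-0.79), Wdr75 (-0.78) and Utp18 (0.74), assembly factors of the small subunit, followed it without passing. Among 13 growth regulators 0 passed by limma (1 at an unadjusted p under 0.05): Myc, a factor that drives ribosome synthesis, was 1130 ± 150 against 1953 (-0.77 ± 0.21, adjusted p = 0.0925), and Mxd1, which opposes it, was 116 ± 128 against 10.6 (1.21, adjusted p = 0.325). In the 3 other comparisons limma called 0 genes of these 4 lists and 0 of all tested probe sets.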

How the data were processed

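The authors deposited 1 linear MAS5 intensity (signal) for each probe set and array, per the submitters' processing notes, from 10 µg of labelled RNA per array. The MAS5 version and the build behind the array are not given in the sources used here. Of 22690 probe sets, 64 manufacturer controls were left out. Symbols came from the platform annotation: 20380 probe sets had 1 symbol, 691 several and 1555 none. All 49 members matched RefSeq's GRCm38.p6 table by gene ID, and none needed another symbol. Counts of arrays, not depth, limit the precision.

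Signals were analysed as log2(signal + 50), which understates changes of dim genes. Tested were the 15372 probe sets with 1 or more group means at or above 99.7, which is the 40th percentile of the signals. The 4 comparisons came from 1 fit with limma 3.58.1 in R 4.3.3 over 7 arrays and 4 groups, with 3 residual and 3.36 prior degrees of freedom. This takes the spread of the single syngeneic array to equal that of the rest. P-values are two-sided, with Benjamini-Hochberg adjustment over all tested probe sets of a comparison. The threshold was 0.05. The 95% intervals use the fit's standard error (SE). The procedure was tested on simulated data.

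Members and gene lists (subunits, stalk, tunnel exit, Diamond-Blackfan anaemia, TOP mRNAs, initiation, ribosome assembly, growth control, cell markers) were chosen with earlier results of these data known. Named were members that passed, the 5 largest differences in each direction per comparison, a set of members with known roles, members off the standard lists, members whose probe sets disagree by over 1 on the log2 scale, and up to 4 genes of each other list. Rps9's second probe set, Rps4x and other members given for their pattern across arrays were chosen after their values were seen. Alternatives were median centring, quantile normalization, pseudocount 16 or 100, no filter or one at the 60th percentile, a trimmed mean computed without members, a replicate block, the compared groups alone, limma's trend and robust options, the mean of all probe sets of a gene, leaving out cross-hybridising probe sets, standard ribosomal proteins alone, and each array left out.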

Additional observations from a re-analysis of the deposited data

How the results depend on the processing

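Without a change of setting, limma called 0 members in each comparison. In isotype against syngeneic spleen it called 2 with a filter at the 60th percentile (Rpl12, Rps6), 2 with pseudocount 100 (Rpl12, Rps6), 2 with the mean of all probe sets of a gene (Rpl12, Rps9) and 4 with trend and robust options (Rpl12, Rps19, Rps28, Rps6), all lower in isotype. It called 0 under the other settings run, and 0 in the 3 other comparisons under every setting run. The member median kept its sign in isotype against syngeneic (-0.15 to -0.04) and day 0 against isotype (-0.14 to -0.02). For day 3 against isotype it was -0.13 with median centring, which moved the median of all tested probe sets to -0.07. With 1 array left out the medians ran from -0.15 to -0.10, -0.14 to -0.04, -0.06 to -0.01 and -0.06 to -0.01 in the order of the report, with 0 members called, and leaving out the syngeneic array gives no value for the first. Same-numbered arrays did not deviate together (r = -0.01, 0.07 and 0.04 between groups), and the main fit did not pair them. With 2 arrays per group, this check cannot tell a small shared effect from none. With the replicate block, 0 members were called in each comparison and 798 of all probe sets, against 1017 without it, in isotype against syngeneic. In day 0 against isotype, quantile normalization brought the gap between the members' median and that of all tested probe sets from -0.11 to -0.02. One syngeneic array and the combined RNA limit every comparison with it, and dim members such as Rpl39l in isotype and Rps27 in day 0 differ widely between arrays of 1 group.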
